A study of Mus musculus with 2 samples.

Results

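Peaks of *Meg3* ChIRP-seq whose distance to a transcription start site (TSS) was at most 1000 bp were taken from the WT and KO lists of mouse embryonic fibroblasts (MEFs), in any genomic category. There were 204 such peaks among 2763, of which 123 were in KO (7.92% of 1554 peaks, Wilson 95% interval 6.67 to 9.36%) and 81 in WT (6.70% of 1209, 5.42 to 8.25%). They named 117 distinct genes in KO and 78 in WT, and the distance is the one the lists give, from the centre of a peak to the TSS of the nearest transcript. WT MEFs carried intact β-actin alleles. KO MEFs came from embryos with no β-actin, a genotype that is lethal before birth, and these cells hold raised levels of α-smooth muscle actin. No treatment was given in either group, and cells of both were crosslinked with 1% glutaraldehyde for 10 min. For each genotype the reads of 4 libraries, 2 pulled down with the odd and 2 with the even probes, had been pooled before peak calling. Each genotype is therefore represented by 1 list with no replicate, every score in the lists is 1, and the depth of sequencing is unknown. Tests below compare lists of peaks and not cultures, intervals cover only the counting of peaks, and peaks found in both genotypes may have been taken out of the lists, since no peak of one overlaps a peak of the other.

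*Meg3* is an imprinted long non-coding RNA, expressed from the maternal allele, that can associate with chromatin and with the polycomb repressive complex PRC2. In ChIRP, biotinylated antisense DNA probes pull an RNA down from crosslinked chromatin and the DNA that comes with it is sequenced. Transcription of most widely expressed mammalian genes starts in CpG islands, stretches rich in G and C in which the CpG dinucleotide is not depleted as it is in the rest of the genome. Promoters of tissue-restricted genes, such as receptor and secreted-peptide families, often lack an island.

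A contrast between CpG-rich and CpG-poor DNA was visible in the members themselves. The following stretches of GRCm38 are shown 5′ to 3′ on the strand of the gene, with each CpG dinucleotide in capitals, and were limited to bases outside annotated UTRs. The first set is from CpG-rich members, chosen because they belong to genes with members in both lists or to a gene described below. They are the KO peak in the intron of *Kbtbd11* at chr8:15011577-15011876 (plus strand), both peaks of *Tmem65*, in its first exon in KO at chr15:58822849-58823087 (minus strand) and upstream of it in WT at chr15:58823621-58823830 (minus strand), and the upstream peaks of *Notch2* in KO at chr3:98013310-98013537 (plus strand), of *Upf1* in KO at chr8:70353424-70353603 (minus strand) and of *Canx* in WT at chr11:50325775-50325993 (minus strand).
Kbtbd11 (KO): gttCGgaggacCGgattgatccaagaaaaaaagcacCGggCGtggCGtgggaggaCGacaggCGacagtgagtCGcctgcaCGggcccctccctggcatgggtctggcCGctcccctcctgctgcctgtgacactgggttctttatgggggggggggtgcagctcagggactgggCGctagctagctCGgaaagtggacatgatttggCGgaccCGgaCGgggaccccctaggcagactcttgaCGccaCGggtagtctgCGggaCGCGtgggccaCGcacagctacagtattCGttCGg
Tmem65 (KO): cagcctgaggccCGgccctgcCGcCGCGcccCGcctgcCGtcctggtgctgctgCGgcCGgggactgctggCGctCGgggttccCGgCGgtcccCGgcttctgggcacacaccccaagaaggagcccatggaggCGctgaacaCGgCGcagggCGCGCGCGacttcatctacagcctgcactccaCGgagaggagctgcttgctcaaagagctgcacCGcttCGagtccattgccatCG
Tmem65 (WT): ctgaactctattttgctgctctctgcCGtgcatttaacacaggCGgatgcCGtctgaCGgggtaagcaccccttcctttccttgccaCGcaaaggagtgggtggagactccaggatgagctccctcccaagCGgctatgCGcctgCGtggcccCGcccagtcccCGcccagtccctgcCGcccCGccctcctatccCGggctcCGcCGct
Notch2 (KO): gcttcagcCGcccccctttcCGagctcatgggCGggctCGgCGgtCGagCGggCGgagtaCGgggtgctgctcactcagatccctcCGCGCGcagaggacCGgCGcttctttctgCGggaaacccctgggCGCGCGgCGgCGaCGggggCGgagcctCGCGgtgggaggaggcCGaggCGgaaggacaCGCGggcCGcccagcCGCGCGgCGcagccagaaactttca
Upf1 (KO): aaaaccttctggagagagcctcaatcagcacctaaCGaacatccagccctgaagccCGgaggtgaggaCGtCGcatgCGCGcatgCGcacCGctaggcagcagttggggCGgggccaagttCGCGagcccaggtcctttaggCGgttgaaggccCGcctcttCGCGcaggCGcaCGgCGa
Canx (WT): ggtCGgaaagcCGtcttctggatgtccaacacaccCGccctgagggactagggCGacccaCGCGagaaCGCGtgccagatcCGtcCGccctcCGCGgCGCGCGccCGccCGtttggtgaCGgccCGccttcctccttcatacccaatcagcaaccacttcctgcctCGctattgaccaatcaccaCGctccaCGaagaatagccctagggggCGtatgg

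These stretches held 23 CpG dinucleotides in 300 bases of *Kbtbd11*, 24 in 239 and 15 in 210 bases of the KO and WT peaks of *Tmem65*, 33 in 228 of *Notch2*, 18 in 180 of *Upf1* and 23 in 219 of *Canx*.

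The second set shows members that were not CpG-rich by the rule given below, again outside UTRs. They are the peak upstream of *Lep* in KO at chr6:29059281-29059580 (plus strand), the peak of *Plec* in KO at chr15:76199075-76199293 (minus strand), the peak named for the predicted interferon-like gene *Gm13290* in KO at chr4:88775976-88776256 (plus strand) and the upstream peak of *Hdac7* in WT at chr15:97832109-97832366 (minus strand). The intronic WT peak of *Hdac7*, at chr15:97830981-97831140 (minus strand), is CpG-rich and is placed beside it, since the same gene carried both kinds.
Lep (KO): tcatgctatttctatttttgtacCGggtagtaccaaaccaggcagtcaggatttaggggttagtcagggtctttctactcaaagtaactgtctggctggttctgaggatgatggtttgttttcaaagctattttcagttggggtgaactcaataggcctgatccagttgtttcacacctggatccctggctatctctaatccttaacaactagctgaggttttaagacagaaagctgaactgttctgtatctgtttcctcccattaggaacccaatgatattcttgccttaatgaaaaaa
Plec (KO): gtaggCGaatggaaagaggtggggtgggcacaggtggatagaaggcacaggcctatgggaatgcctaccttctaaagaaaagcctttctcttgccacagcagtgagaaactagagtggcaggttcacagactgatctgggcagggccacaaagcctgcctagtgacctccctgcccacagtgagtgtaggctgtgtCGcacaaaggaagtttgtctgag
Gm13290 (KO): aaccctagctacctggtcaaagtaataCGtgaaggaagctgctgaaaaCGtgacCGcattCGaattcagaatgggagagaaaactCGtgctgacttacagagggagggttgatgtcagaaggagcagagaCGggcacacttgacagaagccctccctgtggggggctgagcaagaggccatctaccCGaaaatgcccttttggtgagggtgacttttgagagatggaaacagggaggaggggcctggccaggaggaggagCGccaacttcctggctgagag
Hdac7 upstream (WT): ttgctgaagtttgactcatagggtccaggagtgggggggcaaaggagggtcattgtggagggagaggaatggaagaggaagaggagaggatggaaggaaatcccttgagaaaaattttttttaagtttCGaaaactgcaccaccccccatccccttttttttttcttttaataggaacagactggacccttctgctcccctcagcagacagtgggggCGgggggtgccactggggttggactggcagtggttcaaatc
Hdac7 intron (WT): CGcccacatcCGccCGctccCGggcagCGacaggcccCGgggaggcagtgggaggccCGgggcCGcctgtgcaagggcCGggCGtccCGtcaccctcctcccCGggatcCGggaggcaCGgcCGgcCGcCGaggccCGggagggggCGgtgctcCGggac

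Here the counts were 1 CpG in 300 bases of *Lep*, 2 in 219 of *Plec*, 8 in 281 of *Gm13290* and 2 in 258 upstream of *Hdac7*, against 20 in 160 bases of the intron of *Hdac7*.

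Members were concentrated close to the start and on its transcribed side. Downstream of the TSS lay 85 of 123 KO members (69.1%, 60.5 to 76.6%) and 57 of 81 WT members (70.4%, 59.7 to 79.2%), and the shares did not differ between the lists beyond counting error (difference -1.26 percentage points, 95% interval -13.6 to 11.8; two-sided Fisher's exact test, Benjamini-Hochberg adjusted p = 1). Over both lists, 104 members lay within 500 bp downstream, 47 within 500 bp upstream, 38 further downstream and 15 further upstream. The median distance was 151 bp downstream in KO and 179 bp downstream in WT. Counted per kb of distance, the KO list held 244 peaks per kb within 250 bp of a TSS, then 120, 84 and 44 per kb in the next 3 steps of 250 bp, and 22 per kb between 1000 and 2000 bp. The WT list held 136, 104, 52 and 32 per kb in the same steps and 23 per kb beyond the limit. The density fell with distance within the limit in both lists. Beyond it there was no further steady fall, with 19 per kb in KO and 20 in WT between 2000 and 3000 bp and 25 and 20.1 per kb between 3000 and 10000 bp. Within 100 bp of the TSS lay 33 KO members (26.8%, 19.8 to 35.3%) and 15 WT members (18.5%, 11.6 to 28.3%), a difference of 8.31 points whose interval includes no difference (-3.77 to 19.3; Fisher's exact test, adjusted p = 0.455).

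**Figure D1:**
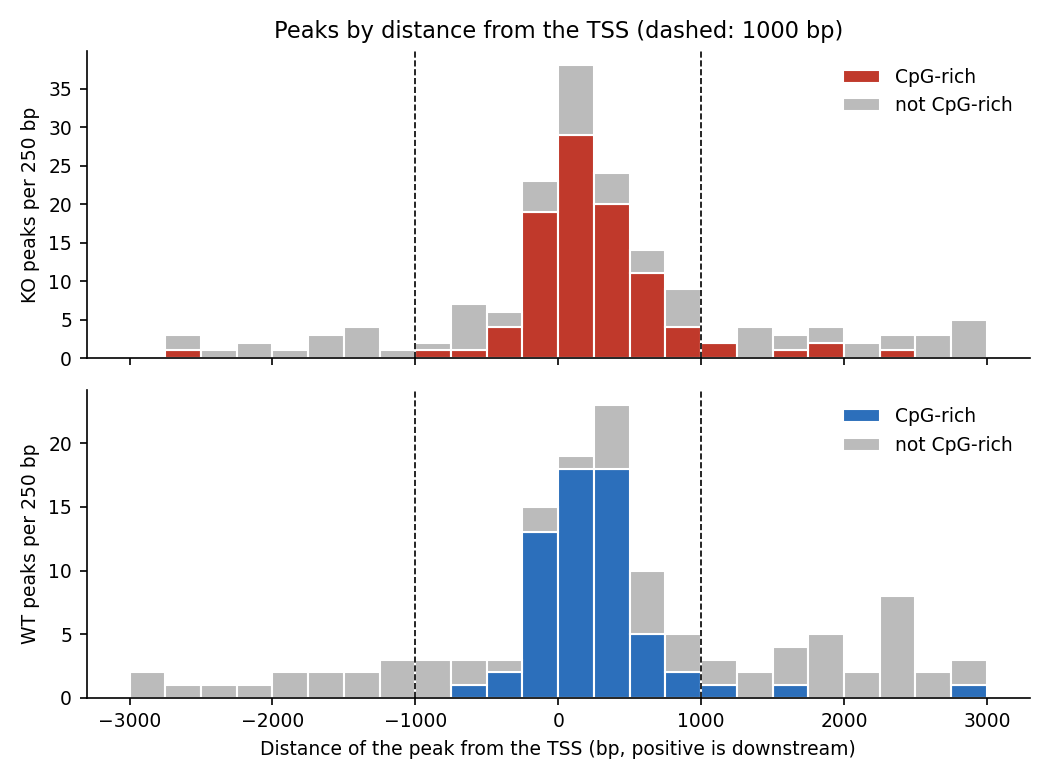
Number of KO (top) and WT (bottom) peaks per 250 bp of distance from the TSS, with CpG-rich peaks in colour and the others in grey, and the 1000 bp limit as dashed lines. The highest bar lies downstream of the TSS, in the first 250 bp in KO and in the next 250 bp in WT. Most peaks there are CpG-rich, and in both lists the bars are low and mostly grey beyond the limit.

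The members just inside the limit were *Ctsf* (942 bp), *Hnrnpul2* (925 bp) and *Tob2* (901 bp) in KO and *Cd300c* (970 bp), *Mir1943* (871 bp) and *Esp34* (846 bp) in WT. Those just outside were *Ltbp3* (1032 bp), *Gbp2* (1146 bp) and then *Ankrd34a* in KO and *Yif1a* (1009 bp), *Lypd2* (1018 bp) and *Defa17* (1046 bp) in WT. The peak of *Defa17* in KO, which encodes an intestinal α-defensin, was a member at 418 bp, so this gene fell on either side of the limit in the 2 lists.

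By the category of the lists, 65 KO and 37 WT members were in promoter-TSS, 22 and 21 in introns, 21 and 10 in exons, 7 and 8 in 5′ UTRs, 7 and 4 at the end of a transcript and 1 and 1 in non-coding exons. Nearly all named a protein-coding gene, 119 of 123 in KO (96.7%, 91.9 to 98.7%) and 74 of 81 in WT (91.4%, 83.2 to 95.8%), which differed by 5.39 points (-1.13 to 13.8; Fisher's exact test, adjusted p = 0.455). The non-coding genes were *1700039E22Rik*, *2010320M18Rik*, *Mir7240* and *1700016A09Rik* in KO. In WT they were *Gm8016*, *Mir1943*, *Gm15569*, *9330020H09Rik*, *BC037704*, *Emx2os*, which is antisense to the homeobox gene *Emx2*, and the small nucleolar RNA gene *Snord88a*. At least 29 of the 204 members lay within 1 kb of the start of a further gene on the opposite strand, 18 in KO and 11 in WT, so that the name in the list is one of several possible. Examples are *Errfi1* with *1700045H11Rik*, *Nelfe* with *Skiv2l*, *Glyr1* with *Ubn1* and *Hsf1* with *Bop1* in KO, and *Fau* with *Mrpl49* and *Emx2os* with *Emx2* in WT. Another such case is the KO peak named for *Rps29*, a ribosomal protein gene, which lay 258 bp upstream of *Rps29* but nearer to the start of *Rn7s1*, the gene of the 7SL RNA of the signal recognition particle, and whose 100-base stretches occur 2 times in the genome. The RefSeq annotation of GRCm38.p6 placed a TSS within 1000 bp of 120 of the 123 KO and 80 of the 81 WT members.

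The DNA under the members was rich in G, C and CpG. In the 300 bp around the centre of each peak, the median GC content was 66.3% in KO and 66.3% in WT members, against 41.0% and 43.3% in the other peaks of the same lists. The median ratio of observed to expected CpG was 0.773 in KO and 0.741 in WT members, and 0.194 and 0.189 in the others. A peak was called CpG-rich when these 300 bp had at least 50% GC and a ratio of at least 0.6. By this rule 89 of 123 KO members (72.4%, 63.9 to 79.5%) and 75 of 1431 other KO peaks (5.24%, 4.20 to 6.52%) were CpG-rich, a difference of 67.1 points (Fisher's exact test, adjusted p = 2.64e-69). In WT the counts were 59 of 81 members (72.8%, 62.3 to 81.3%) and 61 of 1128 other peaks (5.41%, 4.23 to 6.89%), a difference of 67.4 points (adjusted p = 1.72e-47 by Fisher's exact test). Members were picked for lying near a start, where CpG islands are common. A difference in this direction was therefore likely from the choice of members alone. Between the lists the CpG-rich share of members differed by -0.48 points, KO minus WT, with an interval of -12.5 to 12.3 (Fisher's exact test, adjusted p = 1). Upstream members were CpG-rich in 41 of 62 cases (66.1%, 53.7 to 76.7%) and downstream members in 107 of 142 (75.4%, 67.7 to 81.7%). The share fell with distance, from 78.7% of KO and 91.2% of WT peaks within 250 bp to 45.5% of KO and 2 of 8 WT peaks in the last 250 bp before the limit, and to 22.7% and 8.70% between 1000 and 2000 bp.

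**Figure D2:**
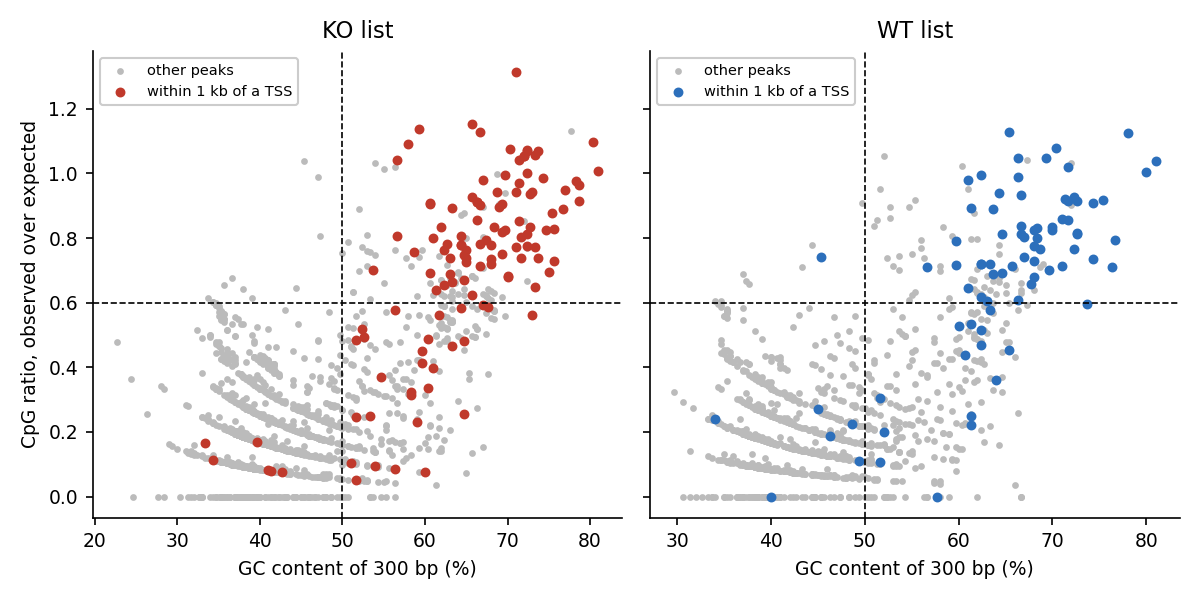
GC content (%) against the ratio of observed to expected CpG in the 300 bp around each peak, for KO (left) and WT (right), with peaks within 1 kb of a TSS in colour, other peaks in grey and the 2 minimums of the CpG-rich rule as dashed lines. Most coloured points lie at the upper right of both lines, and most grey points lie below the line of the CpG ratio.

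The extremes were *Errfi1* in KO, a feedback inhibitor of the EGF receptor whose peak 3 bp from its TSS had the highest ratio (1.31), and *Hmga1b* in KO and *Efemp2* in WT, which had the highest GC content (81.0% each). The lowest GC contents belonged to *Olfr372* (33.3%) and *Vmn2r115* (34.3%) in KO, an olfactory and a vomeronasal receptor gene, and to *Esp34* (34.0%) in WT, an exocrine gland secreted peptide. The lists mark CpG islands only for intronic and intergenic peaks, so their label can be read for intronic members alone. It was present on 16 of 22 intronic members in KO (72.7%, 51.8 to 86.8%) and 12 of 21 in WT (57.1%, 36.5 to 75.5%), and 27 of these 28 were also CpG-rich by the rule on 300 bp. Among the labelled genes were *Myh9*, *Cbfb*, *Gse1*, *Gsn*, *Syncrip*, *Trio* and *Nfat5* in KO and *Cpt1a*, *Hdac7*, *Dbn1*, *Igf2bp1*, *Phactr4* and *Cdc42ep1* in WT.

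Promoters as a whole gave a measure of what a start site usually holds. Of 32851 RefSeq promoters of GRCm38.p6, each running from 250 bp before to 50 bp after a start, 10995 (33.5%, 33.0 to 34.0%) met the CpG-rich rule. Of the promoters of the member genes found in that set, 75 of 116 in KO (64.7%, 55.6 to 72.8%) and 46 of 67 in WT (68.7%, 56.8 to 78.5%) met it. These windows are set by the gene and not by the peak. The set of all promoters was not limited to protein-coding genes, which 193 of the 204 members named (94.6%). Promoters of the member genes found in it were more often CpG-rich than all promoters, by intervals that do not meet. The intervals count promoters and not genes. The difference between member promoters and all promoters was not tested.

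Short motifs were searched on both strands of the same 300 bp and are given as letters found, not as sites of a factor. Windows of members were centred on the peak and so mostly lay downstream of the start. Those of promoters ran from 250 bp before to 50 bp after it. Members and promoters were thus scored at unlike positions, and their shares are not directly comparable for motifs tied to a position. The GC box GGGCGG, which the Sp and Klf zinc-finger factors can bind, was present at 71 of 123 KO members (57.7%, 48.9 to 66.1%) and 45 of 81 WT members (55.6%, 44.7 to 65.9%). It occurred in 6.64% of the other KO and 5.59% of the other WT peaks and in 35.7% of all promoters. Among CpG-rich sequences only, the shares were 73.0% of KO members, 64.4% of WT members and 75.8% of promoters. The TATA box letters TATAAA were rare at members, 4 of 123 in KO (3.25%) and 3 of 81 in WT (3.70%), against 13.6% of all promoters and 4.57% of CpG-rich promoters, and were found in 23.9% and 22.7% of the other peaks. The CCAAT box was found at 20.3% of KO members (14.2 to 28.3%) and 22.2% of WT members (14.5 to 32.4%), below the 37.4% of all promoters. Restricted to CpG-rich sequence, CCAAT stood at 16 of 89 KO and 11 of 59 WT members and at 35.3% of promoters.

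The remaining motifs were few, and the same difference of windows between members and promoters applies. The ETS core CCGGAAG stood at 13 KO members (10.6%, 6.28 to 17.2%) and 2 WT members (2.47%, 0.680 to 8.56%), against 8.86% of promoters. Among CpG-rich sequences it stood at 12.4% of KO and 3.39% of WT members and at 19.2% of promoters, which puts KO below promoters instead of above. The motif GCGCATG of NRF1, a factor that acts on genes of mitochondria, stood at 6 KO and 3 WT members (4.88% and 3.70%) and 3.91% of promoters, and among CpG-rich sequences at 6.74% of KO and 5.08% of WT members and 8.35% of promoters. All 3 of its matches in the window of *Upf1*, which encodes the helicase of nonsense-mediated mRNA decay, lie in the stretch printed above. AAGATGG, the core of the YY1 motif, stood at 12 KO and 5 WT members (9.76% and 6.17%), against 6.34% of promoters, and among CpG-rich sequences at 10.1% of KO and 6.78% of WT members and 6.89% of promoters. The cAMP response element TGACGTCA stood at 4 KO and 3 WT members (3.25% and 3.70%) and 1.79% of promoters, *Fau* in WT and *Glyr1* in KO among them. Among CpG-rich sequences its shares were 3.37% of KO and 5.08% of WT members and 3.71% of promoters. The GA repeat GAGAGAGA was present at 5 KO members (4.07%) and 0 of 81 WT members (upper Wilson bound 4.53%), against 3.93% of promoters. Among CpG-rich sequences it stood at 2.25% of KO members, 0 of 59 WT members and 2.54% of promoters. The KO members with the GA repeat include *Gm13272* and *Gm13285*, predicted interferon-like genes whose sequence is repeated, as described below.

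The DNA under members was mostly unique in the genome, as it was under peaks just outside the limit. A peak was called single-copy when the median 100-base stretch under it occurs once on chromosomes 1 to 19, X and Y. In KO, 110 of 123 members were single-copy (89.4%, 82.8 to 93.7%) against 455 of 1431 other peaks (31.8%, 29.4 to 34.3%), a difference of 57.6 points (Fisher's exact test, adjusted p = 3.42e-37). In WT, 76 of 81 members (93.8%, 86.4 to 97.3%) and 434 of 1128 other peaks (38.5%, 35.7 to 41.3%) were single-copy, which differed by 55.4 points (Fisher's exact test, adjusted p = 2.37e-24). The lists did not differ in this share beyond counting error (-4.40 points, -11.9 to 4.22; Fisher's exact test, adjusted p = 0.538). These differences rest on peaks far from a TSS: between 1000 and 2000 bp, 86.4% of KO and 82.6% of WT peaks were single-copy, and between 2000 and 3000 bp 89.5% of KO and 18 of 20 WT peaks, so the trait is not particular to members. Among single-copy peaks only, 86 of 110 KO members (78.2%) and 57 of 76 WT members were CpG-rich, against 6.15% and 4.61% of the other peaks.

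Of the 13 KO members that were not single-copy, 11 lay in 1 cluster on chromosome 4, between positions 88774645 and 88806980, in predicted protein-coding genes. This is part of the type I interferon gene cluster, a family of antiviral cytokines, and 1 of these genes, *Gm13285*, has the alias limitin, an interferon-like cytokine. The members were named for *Gm13285* at 4 positions, for *Gm13272* and *Gm13276* at 2 each, and for *Gm13277*, *Gm13288* and *Gm13290* at 1 each. Their median 100-base stretches occur from 4 to 14 times in the genome, so reads from one copy could have been placed at another and the name of each gene is uncertain. A single WT member lay between them, named for *Gm13279*, at 88790987 to 88791343, with 9 copies and 2793 bp from the nearest KO peak. Within these peaks GC content ran from 51.7 to 64.3%, and 1 of the 11 KO members was CpG-rich, as was the WT member. Without the cluster, 110 of 112 KO members (98.2%, 93.7 to 99.5%) and 76 of 80 WT members (87.8 to 98.0%) were single-copy, which turns the difference between the lists to 3.21 points with KO higher, still without a call (adjusted p = 0.490 by Fisher's exact test). The other members with repeated sequence were *Rps29* (2 copies) and the histone gene *Hist1h2bc* (5 copies) in KO and *Gm8016* (4 copies), *4930449I24Rik* (3 copies), *Gm6408* (2 copies) and *Hspa1a* (2 copies), an inducible Hsp70 gene with a near-identical neighbour, in WT.

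3 genes had members in both lists, *Tmem65*, *Kbtbd11* and *Plec*, out of 117 KO and 78 WT member genes (2.56% and 3.85%). Of all 26180 RefSeq genes, 0.298% had a WT member and 0.443% a KO member. These shares were not tested against each other, and peaks found in both genotypes may be missing from the lists. *Tmem65*, which encodes a protein of the inner mitochondrial membrane, had the KO peak 459 bp downstream, in its first exon at chr15:58822849-58823087, and the WT peak 298 bp upstream at chr15:58823621-58823830, with 533 bp between them, so they lay on opposite sides of the start. *Kbtbd11*, which encodes a kelch and BTB domain protein, had the WT peak 150 bp downstream in the 5′ UTR at chr8:15011056-15011294. Its KO peak lay 701 bp downstream in the intron at chr8:15011564-15011888, 269 bp further along. Both peaks were CpG-rich in each of these genes (GC content from 64.7 to 71.7%). *Plec* encodes plectin, a very large linker of intermediate filaments to actin and to adhesion sites, and has many alternative first exons. Its KO peak at chr15:76199075-76199312 lay 213 bp downstream of one start. The WT peaks, at chr15:76195714-76195979 and chr15:76205541-76205822, lay 136 bp upstream and 640 bp downstream of others. None of the 3 peaks of *Plec* was CpG-rich, with ratios of 0.095 in KO and 0.22 and 0.36 in WT.

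**Figure D3:**
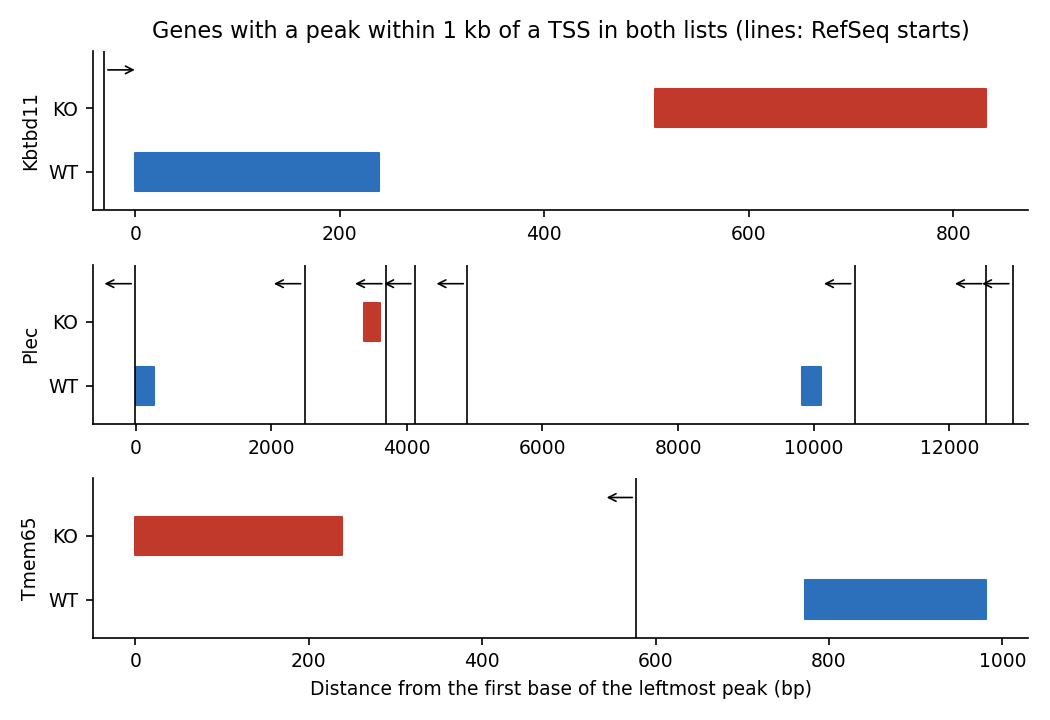
Peaks of the 3 genes with a member in both lists, as bars (KO red, WT blue) against the distance in bp from the first base of the leftmost peak, with RefSeq transcript starts as vertical lines and arrows in the direction of transcription. The KO and WT peaks stand side by side without overlap, on opposite sides of the start in *Tmem65* and at different starts in *Plec*.

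Genes with more than 1 member in a list were *Alad*, *Gm13272*, *Gm13276* and *Gm13285* in KO and *Plec*, *Tef* and *Hdac7* in WT. *Alad*, which encodes an enzyme of haem synthesis, had a CpG-rich peak 72 bp downstream (GC content 71.0%) and a CpG-poor one 619 bp upstream (41.0%). *Hdac7*, a class IIa histone deacetylase, had the same arrangement in WT, with a CpG-rich peak in its intron 707 bp downstream (76.3% GC) and a poor one 470 bp upstream (51.7%). *Tef*, a PAR-domain transcription factor with a circadian rhythm, had peaks 113 and 486 bp downstream.

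With peaks at any distance counted, a KO member gene was seldom named by any WT peak. Of the 117 KO member genes, 14 (interval 7.26 to 19.1%) were named by at least 1 peak anywhere in the WT list, whereas over all 1008 genes of the KO list this share was 28.6%. Of the 78 WT member genes, 13 (16.7%, 10.0 to 26.5%) were named in the KO list, against 34.4% of all 838 WT genes. Both counts include the genes with members in both lists. Member genes were thus below the share of the whole lists in both directions. These shares were not matched for the number of peaks that name a gene, and the difference was not tested. For *Myh9* the WT peak nearest the start was 22057 bp away, for *Cpt1a* the KO peak was 24978 bp away, and for *Mpst*, a WT member at 26 bp, it was at 1781 bp. A peak of the other list lay within 5000 bp of 14 KO members (11.4%) and 14 WT members (17.3%). The same share was not determined for the other peaks, so nothing is read from these counts.

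By function, as assigned from general knowledge of the named genes after the names had been seen, transcription and chromatin had 20 KO and 14 WT members, and 19 KO and 23 WT members (15.4% and 28.4%) were put in no class. The share of all genes in each class was not determined, so no class can be called over-represented. In KO the genes of transcription and chromatin included *Ep300*, the acetyltransferase of histone tails at enhancers (chr15:81585736-81586227, 233 bp upstream), *Brd2*, a reader of acetylated histones (225 bp downstream), *Hsf1*, the main activator of heat-shock genes (276 bp downstream), *Cbfb*, the partner of Runx factors (745 bp), *Nfat5* (867 bp) and *Msl1* (730 bp). Lying within 100 bp of their TSS were *Glyr1* (1 bp), *Hmg20b* (8 bp), *Rpap3* (43 bp), *Lef1*, an effector of Wnt signalling (48 bp), and *Nelfe*, a subunit of the complex that holds paused RNA polymerase II (100 bp). In WT the members within 100 bp were *Nr1d1*, the circadian repressor Rev-erbα (36 bp upstream), *Ing1*, a reader of trimethylated histone H3 (50 bp), and *Atf7* (88 bp). Further members were *Taf2* (126 bp) and *Taf5* (748 bp), subunits of TFIID, as well as *Chrac1* (489 bp), *Klf10* (724 bp) and *Foxh1* (840 bp). Of this class, 18 of 20 KO and 9 of 14 WT members were CpG-rich.

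RNA processing and translation gave 14 KO and 7 WT members, of which 14 and 6 were CpG-rich. In KO these were, closest to their starts, *Noc3l* (15 bp), *Eef1d*, a subunit of the elongation factor that recharges eEF1A (40 bp), the seryl-tRNA synthetase gene *Sars* (83 bp) and the mitochondrial ribosome gene *Mrps18a* (86 bp). Others were *Usb1* (133 bp), which trims U6 RNA, *Upf1* (234 bp), the cold-inducible RNA-binding protein gene *Cirbp* (335 bp) and *Syncrip* (353 bp). In WT the class held *Fau* (21 bp), which encodes a ubiquitin-like protein fused to a ribosomal protein, *Zc3h3* (194 bp), *Trmt12* (344 bp), *Igf2bp1* (667 bp), which binds *Igf2* mRNA, and *Sart3* (744 bp).

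Genes of the cytoskeleton, the nuclear lamina and their regulators carried 10 KO and 11 WT members, 9 and 6 of them CpG-rich. In KO these included *Myh9*, the heavy chain of non-muscle myosin IIA (chr15:77841694-77841868, 394 bp downstream in an intron), *Gsn*, the actin-severing protein gelsolin (164 bp), *Lmna*, which encodes lamins A and C (289 bp), *Add1*, which caps actin filaments (109 bp), and *Trio* (832 bp). In WT they included *Pdlim7* (16 bp), the actin-binding *Triobp* (105 bp), the calponin gene *Cnn2* (179 bp), *Phactr4*, which binds actin and protein phosphatase 1 (273 bp), *Dlc1* (279 bp), *Cdc42ep1* (471 bp) and the drebrin gene *Dbn1* (578 bp). *Plec* alone was shared. None of the 10 KO members and 1 of the 11 WT members lay within 100 bp. *Actb* itself, the gene deleted in KO, had no peak named for it in either list, and the nearest peak lay 1152456 bp from the gene in KO and 2724762 bp in WT.

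Metabolic enzymes and mitochondrial proteins had 8 KO and 5 WT members, all single-copy and 5 of each CpG-rich. In KO these were *Fasn*, fatty acid synthase (chr11:120824250-120824500, 172 bp downstream in the 5′ UTR), *Prdx2*, a peroxiredoxin (36 bp), *Alad*, *Cygb* (135 bp), *Pycrl*, an enzyme of proline synthesis (366 bp), *St3gal2* (554 bp) and *Tmem65*. In WT they were *Mpst* (26 bp), *Mcat*, of mitochondrial fatty acid synthesis (263 bp), *Cpt1a*, which brings fatty acids into mitochondria (chr19:3323526-3323725, 324 bp downstream in an intron), the ATP synthase subunit gene *Atp5d* (344 bp) and *Tmem65*. Transporters and channels were *Slc11a2*, an iron transporter (25 bp), *Slc5a6*, a vitamin transporter (162 bp), and *Clcn3* (237 bp) in KO, and *Nipal2* (127 bp) and the nucleoside transporter gene *Slc29a2* (156 bp) in WT.

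Secreted signals, receptors and their kinases made up 19 KO members (15.4%) and 7 WT members (8.64%), 12 and 7 of them CpG-rich. Within 100 bp in KO were *Errfi1* (3 bp), *Rhbdf2* (6 bp), the cytokine gene *Il34* (63 bp), the receptor phosphatase gene *Ptprs* (67 bp) and *Notch2* (chr3:98013310-98013570, 98 bp upstream). *Csf1* itself, the macrophage colony-stimulating factor, had a KO peak 303 bp downstream, and *Il34* and *Csf1* encode ligands of the same receptor. Further KO members were *Wisp1* (104 bp), a Wnt-induced matricellular protein, *Map2k7* (234 bp), *Mapk12* (438 bp), *Cdk6* (571 bp), *Notum*, which inactivates Wnt proteins (719 bp), and *Lep*, the adipose hormone leptin (791 bp upstream). WT held *Efemp2*, an elastic fibre protein (3 bp), the NF-κB kinase gene *Ikbkb* (85 bp), *Fgf22* (120 bp), *Wnt7b* (292 bp), *Sufu*, a negative regulator of Hedgehog signalling (471 bp), *Adcy8* (717 bp) and the galanin receptor gene *Galr3* (831 bp).

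Protein folding, degradation and membrane traffic gave 12 KO and 7 WT members. In KO, 6 lay within 100 bp of the start, the ER-phagy receptor gene *Retreg1* (21 bp), *Kxd1* (23 bp), *Fkbp8* (31 bp), *Midn* (47 bp), the chaperone gene *Bag6* (66 bp) and *Hspa12a* (81 bp). In WT these were *Ppp6r3* (29 bp), *Ap1s1* (158 bp), *Syvn1*, the ubiquitin ligase of ER-associated degradation (183 bp), *Fkbp2* (187 bp), *Canx*, the ER chaperone calnexin (211 bp), *Hspa1a* (288 bp) and *Rtn3* (350 bp). Immune, receptor and secreted-peptide families gave 18 KO and 5 WT members, of which 2 and 2 were CpG-rich. Besides the interferon-like cluster they were *Dcpp2* (41 bp), *Vmn2r115* (356 bp), *Tapbp*, which loads peptides on MHC class I (397 bp), *Olfr279* (414 bp), *Defa17* (418 bp), *Raet1c* (573 bp) and *Olfr372* (628 bp) in KO. In WT they were the MHC class I gene *H2-Q1* (61 bp), *Cd300ld3* (725 bp), *Esp34* (846 bp) and *Cd300c* (970 bp), beside *Gm13279*. Within 100 bp but in no class were *Lmbr1l*, *Spata1*, *2010320M18Rik*, *1700016A09Rik* and *1600014C10Rik* in KO and *Dlgap4*, *Rnf217*, *9330020H09Rik*, *Gm15569* and *Gm8016* in WT.

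**Figure D4:**
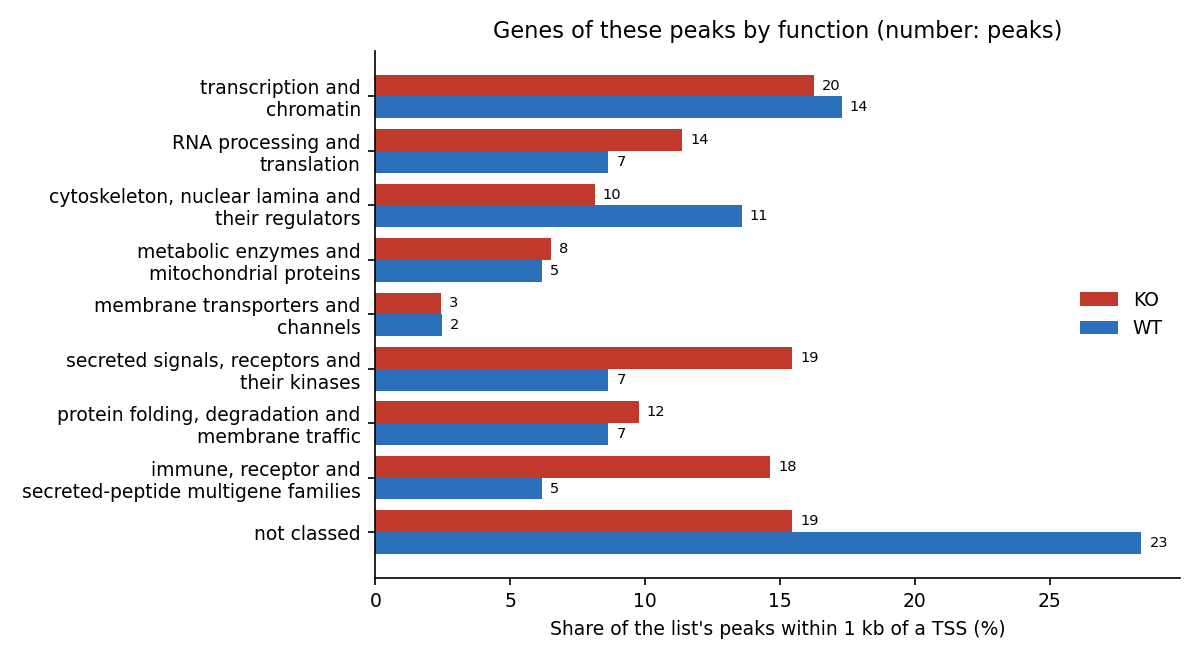
Share (%) of the KO (red) and WT (blue) peaks within 1 kb of a TSS whose gene falls in each functional class, with the number of peaks beside each bar. Transcription and chromatin holds 20 KO and 14 WT peaks, and the multigene families hold 18 and 5, of which 11 and 1 are in the interferon-like cluster.

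Gene families were also counted by name patterns and lists of gene symbols, which differ from the classes above. Such lists can miss genes of a family or take in others, and their sizes are the matches among RefSeq genes. Of 26180 RefSeq genes, 0.443% had a KO member and 0.298% a WT member, and 3.83% and 3.19% were named by a KO or WT peak at any distance. At these shares a list of about 50 genes would seldom hold a member, so a count of 0 in such a list is not a result about it. Of 1497 olfactory and vomeronasal receptor genes, 3 had a KO member and 0 a WT member, and 38 and 32 of them were named by peaks at any distance. A list of 492 KRAB and C2H2 zinc-finger genes had 1 gene with a KO member (*Zfp622*) and 0 with a WT member. At any distance, 16 and 10 of its genes were named. This list is not complete for C2H2 genes, since it left out the members *Klf16* and *Scrt1* in KO and *Klf10* and *Ovol1* in WT. Of 1190 microRNA genes, *Mir7240* in KO and *Mir1943* in WT were members, with 39 and 37 named at any distance. Ribosomal protein names were 3 in KO, of which *Mrps18a* and *Rps29* are ribosomal and *Rps6kb2* is a kinase, of 184 genes. Solute carriers gave 2 genes in KO and 1 in WT of 397, respiratory chain and ATP synthase genes 0 and 1 (*Atp5d*) of 109, tRNA synthetases 1 (*Sars*) and 0 of 33, histone genes 1 (*Hist1h2bc*) and 0, small RNAs 0 and 1 (*Snord88a*) of 172, and a list of 56 actin and cytoskeleton genes 2 (*Gsn* and *Myh9*) and 1 (*Cnn2*). Predicted and clone-named genes were 14 in KO and 9 in WT of 4418. The chondroitin, heparan and dermatan sulfate genes (50 genes) and the phospholipases (49 genes), both pathways of interest in the study, had no member in either list, and 7 and 4 of them were named by KO peaks and 5 and 3 by WT peaks further away. There was also no member among 51 polycomb and BAF genes, 51 proteasome genes, 49 imprinted genes, 43 named long non-coding RNAs, 50 genes of glycolysis, the TCA cycle and the pentose phosphate pathway or 38 fibroblast and matrix genes.

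*Meg3* had no peak named for it in either list. The nearest peak on its chromosome lay 4053719 bp from the gene in KO and 967115 bp in WT. *Neat1*, the RNA that scaffolds paraspeckles, had no member, and its nearest peak lay 2728 bp from the TSS in KO and 6314 bp in WT, inside the gene.

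Members were unevenly spread over the chromosomes. Chromosomes 8, 15, 17 and 19 hold 16.6% of the genes and held 76 KO members (61.8%) and 55 WT members (67.9%), against 25.4% of all KO and 29.7% of all WT peaks. Chromosomes 1, 14, 18, X and Y had no member, although they carry 16.5% of the genes and held 414 KO and 289 WT peaks, most of them on chromosome 1. Per 1000 genes, chromosome 15 had 22.8 KO and 29.1 WT members, chromosome 19 had 16.6 and 21.3 and chromosome 8 had 19.7 and 3.93. Chromosome 17 had 11.9 and 3.17, and chromosome 4 had 8.96 and 1.28. Of the 14 KO and 2 WT members on chromosome 4, 11 and 1 lay in the interferon-like cluster, where the placement of reads is uncertain. Chromosome 8 held 25 KO members (20.3%, 14.2 to 28.3%) and 5 WT members (6.17%, 2.67 to 13.6%), whereas chromosome 15 held 22 KO members (17.9%, 12.1 to 25.6%) and 28 WT members (34.6%, 25.1 to 45.4%). The whole lists leaned the same way, with 6.82% of all KO and 3.56% of all WT peaks on chromosome 8 and 7.27% and 13.4% on chromosome 15, so this lean is not particular to members. These chromosomes were picked after the counts had been seen and the differences were not tested.

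**Figure D5:**
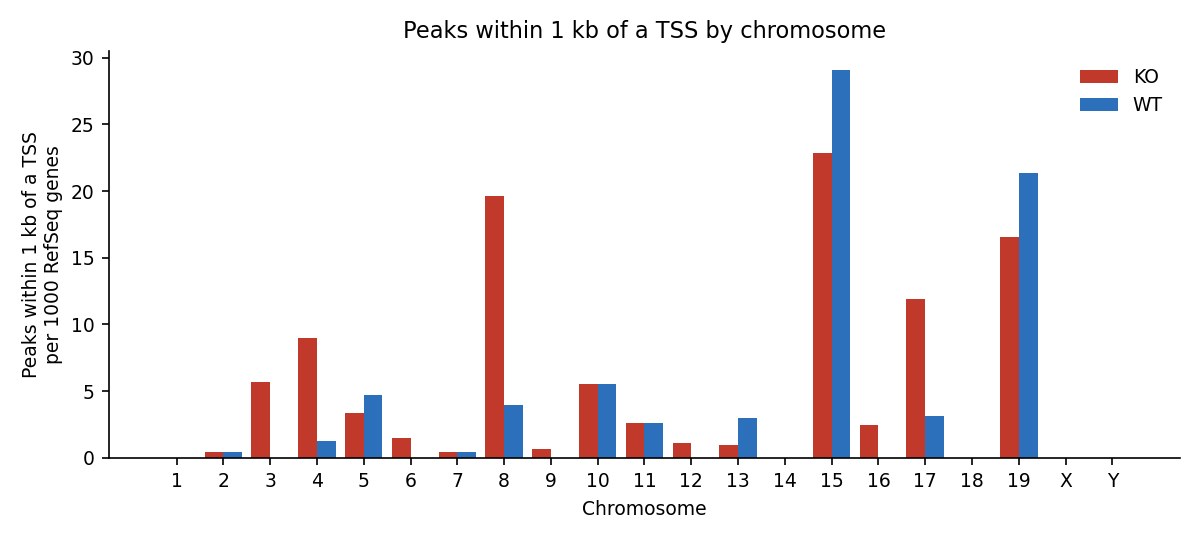
Peaks within 1 kb of a TSS per 1000 RefSeq genes on each chromosome, KO in red and WT in blue. Chromosomes 15 and 19 are high in both lists, chromosomes 8 and 17 are higher in KO, and chromosomes 1, 14, 18, X and Y have none.

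Some members lay close together. Of 2737 windows of 1 Mb, 12 held 4 or more members and 67 members in all, and from 24 to 76 genes started in each of the 12, against a median of 6 per window. Since members were chosen by their distance to a TSS, windows with several of them had to hold genes, and nothing is read from these numbers of genes. Chromosomes 2 and 7, with 2208 and 2308 genes, had 2 members each. The interferon-like window on chromosome 4 had the most, 12. On chromosome 19, between 6000001 and 7000000, *Cdc42bpg*, *Gpha2*, *Trpt1* and *Znhit2* in KO stood among *Fau*, *Fkbp2* and *Syvn1* in WT, and in the window before it *Drap1* and *Snx32* in KO stood among *Ccdc85b*, *Efemp2*, *Ovol1* and *Slc29a2* in WT. On chromosome 8, between 70000001 and 71000000, all 6 members were in KO, at *Homer3*, *Upf1*, *Kxd1*, *Fkbp8*, *2010320M18Rik* and *Mir7240*. On chromosome 17, in the MHC region between 34000001 and 36000000, KO members were at *Brd2*, *Nelfe*, *Pbx2*, *Bag6* and *2310061I04Rik* and WT members at *Hspa1a*, *H2-Q1* and *Vwa7*. On chromosome 10, between 80000001 and 81000000, *Cirbp*, *Klf16* and *Midn* in KO stood beside *Atp5d*, *Arhgap45* and *1600002K03Rik* in WT.

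The probes used for the pull-down left no long match in these regions. The longest exact match between the DNA of a member and any of the 16 probes of 20 bases averaged 7.98 bases in KO and 7.85 in WT, against 8.12 and 8.12 in the other peaks, and reached 11 bases at most in both lists. Members were 157 to 616 bp wide in KO (median 218) and 157 to 658 bp in WT (median 204), close to the medians of 233 and 218 bp of the other peaks.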

How the data were processed

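The 2 annotated peak lists that the authors deposited, 1 per genotype, were used. Per the methods, reads were trimmed (Trimmomatic), aligned to GRCm38 (BWA-MEM), deduplicated (Picard), merged over 4 libraries per genotype and used to call peaks against input with MACS2 at a q of 0.05. Blacklisted peaks were removed and peaks were classed as unique or shared and annotated with HOMER. Versions are not given in the sources used here. The deposited score is 1 for all 2763 peaks, and the other deposited columns give positions and distances in bp and names, with no count or depth.

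Members, gene lists and functional classes were chosen with earlier results of these data known. The genes named are those with members in both lists or with several members, those within 100 bp of the TSS, those on the 19 gene lists, *Neat1*, *Meg3* and *Actb*, and those nearest the 1000 bp limit. Others were named as examples of a class after their values were seen. The distance given equalled that to the RefSeq start of the named transcript within 1 bp for 2555 of 2728 peaks. GC content and CpG ratio came from the 300 bp around each centre, and copies of every 100-mer were counted on both strands of the genome. Two-sided Fisher's exact tests served to compare shares, and p was adjusted (Benjamini-Hochberg) over the 4 tests of members against other peaks and over the 5 tests of KO against WT. Intervals are 95% Wilson intervals, and Newcombe's for differences. Other limits of distance, RefSeq starts, 1 peak per gene, 31-mers, stricter CpG minimums, single-copy peaks and fewer chromosomes were tried. Copy counting and the tests were tested on simulated data. Tests ran in scipy 1.17.1 and copy counts in numba 0.67.0, under Python 3.11.15, and tables and figures were made with pandas 2.3.3, matplotlib 3.10.9 and numpy 2.4.6. Sequences and promoters are from RefSeq, GRCm38.p6.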

Additional observations from a re-analysis of the deposited data

How the results depend on the processing

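The 4 comparisons of members with other peaks kept their direction and their call under every alternative run, with differences of at least 48.0 points and a largest adjusted p of 2.53e-08 by Fisher's exact test. For the CpG-rich share, this direction was likely from the choice of members by their distance to a start. In the main run, the differences in the single-copy share rested on peaks far from a TSS. None of the 5 comparisons of KO with WT members was called under any alternative, with adjusted p from 0.287 to 1 by Fisher's exact test, but the sign of 3 of them turned, those of the CpG-rich (-0.48 points), downstream (-1.26 points) and single-copy (-4.40 points) shares. The CpG-rich share of members became higher in KO with 1 peak per gene (0.85 points), stricter CpG minimums (2.02 points), RefSeq starts (1.00 points), a limit of 2000 bp (6.17 points), only single-copy peaks (3.18 points), without chromosomes 1, 15 and 19, on which peaks were densest (9.56 points), and without the interferon-like cluster (6.07 points), the last chosen after the data were seen. The downstream share became higher in KO with RefSeq starts (0.98 points) and without those 3 chromosomes (1.54 points), and the single-copy share without the interferon-like cluster (3.21 points). The cause was not tested. Genes with a member in both lists rose from 3 to 7 at a limit of 2000 bp, by construction of the wider limit, adding *2410141K09Rik*, *Defa17*, *Ltbp3* and *Mpst*, and were 2 at 500 bp (*Plec* and *Tmem65*). No paired analysis was possible because each genotype has 1 pooled list. No replicate could be left out for the same reason, and with no depth a gene without a member cannot be told from one too thinly sequenced.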
